A study of Mus musculus with 4 samples.

Results

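Displaced peak pairs are intervals called open in both genotypes in which the summit of highest −log10 p lay at a different place in each list. Where a peak carried several summits, many were too close in height to be ranked beyond counting error. The choice of pairs favours such near ties. The pairs were taken from ATAC-seq peak lists of germ cells enriched from ovaries of female C57BL/6J embryos at E14.5, and the labels call the material ovarian cells. Gata2cKO embryos, in which a floxed Gata2 was removed by Cre under the control of Prdm1, were set against Gata2WT embryos from the same cross of Gata2flox/+ Prdm1-Cre males with Gata2flox/flox females. By this cross, each embryo of either genotype received a floxed allele from its mother. The labels do not say which other alleles the Gata2WT embryos carried, which part of Gata2 was floxed, or in how many germ cells the Cre had acted. Each genotype had 2 libraries of about 10000 bead-enriched cells, and each was represented by 1 combined peak list, so the spread between libraries is unknown, the genotypes could not be tested against each other and no p-value is given. Rows with the same interval were reduced to the summit of highest −log10 p, called the top summit here. A pair was displaced when a Gata2cKO interval and a Gata2WT interval overlapped each other and no other interval, and their top summits were more than 250 bp apart. The pairs were thus chosen by the measured summit positions, and the rule took 2820 of the 34660 1-to-1 pairs on the 19 autosomes and X. The intervals of the peak caller carried 1 summit in each list for 1321 of them, several summits in both lists for 843, several in the Gata2cKO list alone for 268 and several in the Gata2WT list alone for 388.

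ATAC-seq cuts DNA where it is not wrapped in nucleosomes, and a summit is the base where the signal piles up highest. Active promoters keep a nucleosome-free stretch at the start of transcription, and promoters rich in CG dinucleotides often have several starts, on both strands, spread over a stretch of DNA. GATA2 is a zinc finger factor that binds GATA motifs and is known from blood stem cells. In fetal ovaries at this stage, germ cells leave their pluripotent state and enter meiosis, the process named in the series title. In such bulk material, fewer cells with an open site and less opening per cell cannot be told apart.

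A set of 7 of the promoters in question is printed first, because in each the top summit of 1 list fell inside the printed window and that of the other list fell outside it or in the window of a neighbouring gene. All are RefSeq promoter windows of GRCm38.p6, from 250 bases before to 50 after an annotated start, read 5′ to 3′ on the strand of the gene. Capitals mark the base of the top summit with 10 bases on each side, as far as the window reaches. The first 4 are the strongest such pairs. Hdac4 (chr1:92180292-92180591 (- strand)), the gene of a histone deacetylase, had its Gata2cKO top summit at -124 from the start and its Gata2WT top summit at -397. This annotated start lies inside the gene, and the Gata2cKO top summit was 15.2 kb from the nearest limit of a coding gene.
Hdac4: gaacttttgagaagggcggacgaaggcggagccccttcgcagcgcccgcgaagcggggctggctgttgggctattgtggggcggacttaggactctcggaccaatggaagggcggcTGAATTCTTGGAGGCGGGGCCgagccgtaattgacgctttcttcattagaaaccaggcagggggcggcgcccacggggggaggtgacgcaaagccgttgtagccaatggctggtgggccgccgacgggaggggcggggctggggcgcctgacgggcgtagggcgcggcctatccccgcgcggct
Birc6 (chr17:74528045-74528344 (+ strand)), which encodes a very large inhibitor of apoptosis protein, had the Gata2cKO top summit at -135 and the Gata2WT top summit at 139.
Birc6: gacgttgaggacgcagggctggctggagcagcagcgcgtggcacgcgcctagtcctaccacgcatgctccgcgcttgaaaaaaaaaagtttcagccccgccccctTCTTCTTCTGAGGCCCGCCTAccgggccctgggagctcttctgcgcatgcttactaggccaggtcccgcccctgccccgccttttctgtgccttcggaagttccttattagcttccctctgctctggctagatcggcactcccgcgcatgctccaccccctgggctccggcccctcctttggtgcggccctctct
Gphn (chr12:78226405-78226704 (+ strand)), the gene of the scaffold protein gephyrin, had the Gata2cKO top summit at -250, the first base of the window, and the Gata2WT top summit at -566. Its annotated start also lies inside the gene, with the Gata2cKO top summit 9.08 kb from the nearest limit of a coding gene.
Gphn: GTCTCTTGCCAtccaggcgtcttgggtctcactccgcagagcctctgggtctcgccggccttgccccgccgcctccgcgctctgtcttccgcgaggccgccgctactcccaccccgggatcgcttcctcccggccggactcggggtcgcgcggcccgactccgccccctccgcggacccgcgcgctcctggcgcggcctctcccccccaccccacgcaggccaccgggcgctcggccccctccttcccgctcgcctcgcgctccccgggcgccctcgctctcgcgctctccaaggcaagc
Susd6 (chr12:80790282-80790581 (+ strand)) had the Gata2cKO top summit at -62 and the Gata2WT top summit at 234.
Susd6: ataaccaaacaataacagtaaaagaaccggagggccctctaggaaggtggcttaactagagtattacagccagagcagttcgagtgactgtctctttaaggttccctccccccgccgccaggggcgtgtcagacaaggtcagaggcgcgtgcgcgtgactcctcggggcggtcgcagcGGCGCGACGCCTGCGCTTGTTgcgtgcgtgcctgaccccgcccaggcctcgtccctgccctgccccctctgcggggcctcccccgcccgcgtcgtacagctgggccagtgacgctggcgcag
Ehmt1 (chr2:24919560-24919859 (- strand)), whose product methylates histone H3 as the partner of G9a, is shown as the strongest displaced pair of the chromatin genes described further on, and was added after its values were seen. Its Gata2cKO top summit lay at -98 and its Gata2WT top summit at 353.
Ehmt1: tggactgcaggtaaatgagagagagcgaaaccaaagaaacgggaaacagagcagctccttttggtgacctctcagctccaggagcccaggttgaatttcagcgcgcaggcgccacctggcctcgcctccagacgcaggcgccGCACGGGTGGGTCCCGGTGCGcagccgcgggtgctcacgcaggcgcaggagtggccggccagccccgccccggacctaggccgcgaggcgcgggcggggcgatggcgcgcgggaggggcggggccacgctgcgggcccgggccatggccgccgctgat
Myo9a and Senp8 (the gene of a NEDD8 protease) are neighbours read in opposite directions and were chosen after their values were seen. The Gata2cKO top summit lay in the window of Myo9a (chr9:59750924-59751223 (+ strand)) and the Gata2WT top summit in that of Senp8 (chr9:59750600-59750899 (- strand)), 295 bp apart.
Myo9a: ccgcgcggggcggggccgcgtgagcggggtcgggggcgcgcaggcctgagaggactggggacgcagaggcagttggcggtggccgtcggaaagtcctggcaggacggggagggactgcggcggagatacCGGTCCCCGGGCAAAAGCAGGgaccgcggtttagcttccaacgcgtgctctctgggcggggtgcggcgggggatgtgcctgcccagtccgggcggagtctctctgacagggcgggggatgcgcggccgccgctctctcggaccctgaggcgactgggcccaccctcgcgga
Senp8: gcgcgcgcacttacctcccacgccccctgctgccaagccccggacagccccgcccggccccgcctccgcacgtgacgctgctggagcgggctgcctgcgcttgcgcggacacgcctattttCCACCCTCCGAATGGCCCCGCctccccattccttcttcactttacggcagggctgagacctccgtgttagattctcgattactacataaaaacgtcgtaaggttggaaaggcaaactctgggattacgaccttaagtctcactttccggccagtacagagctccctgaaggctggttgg

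The 1-to-1 pairs held 78.5% of the 44139 Gata2cKO peaks and 70.2% of the 49394 Gata2WT peaks. Heights are given as the pileup at a summit in fragments, recovered from the authors' fold enrichment and −log10 p. The unit that was piled up is not given, and the word fragment stands for it throughout. Each is the authors' value for its own list, and no change between lists is read from it. The genome background was 2.01 fragments in the Gata2cKO list and 2.19 in the Gata2WT list, and the median top summit held 19 fragments in both. Several summits were called in 15.0% of the peaks of each list. A gene end means either limit of a coding gene throughout, so the side where transcription starts counts as well. Of 10 germ cell markers, 9 had a peak within 1 kb of a gene end in the Gata2cKO list (all but Pou5f1) and 10 in the Gata2WT list. Markers of other ovarian cells were also open at gene ends: 5 of 7 supporting cell markers in the Gata2cKO list and 6 in the Gata2WT list, 1 and 2 of 3 interstitial markers, 3 and 3 of 4 endothelial markers, and 1 and 1 of 4 macrophage and blood markers. Gata4, Pdgfra, Cdh5, Ptprc, Csf1r and Hba-a1 had no peak at a gene end in either list. The part of other cells in the displaced pairs was not tested.

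Pairs with displaced summits made up 8.14% of all 1-to-1 pairs (95% Wilson interval 7.85 to 8.43, counting error only, as for all intervals here). The share was 5.16% of the 25593 pairs with 1 summit in each list (4.90 to 5.44) and 20.6% of the 4095 pairs with several summits in both (19.4 to 21.9). Pairs with several summits in 1 list alone lay between, with 12.2% for the Gata2cKO list and 14.0% for the Gata2WT list. The median distance between top summits was 343.5 bp in displaced pairs and 40 bp in the 31840 other pairs. By class the medians were 313 bp with 1 summit in each list and 431 bp with several in both, and the largest distances were 1116 bp and 1706 bp. By chromosome, the displaced share ran from 6.84% on chromosome 9 to 10.3% on chromosome 12, with 7.38% on X. These shares describe what the rule selected, and nothing more is read from them.

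**Figure D1:**
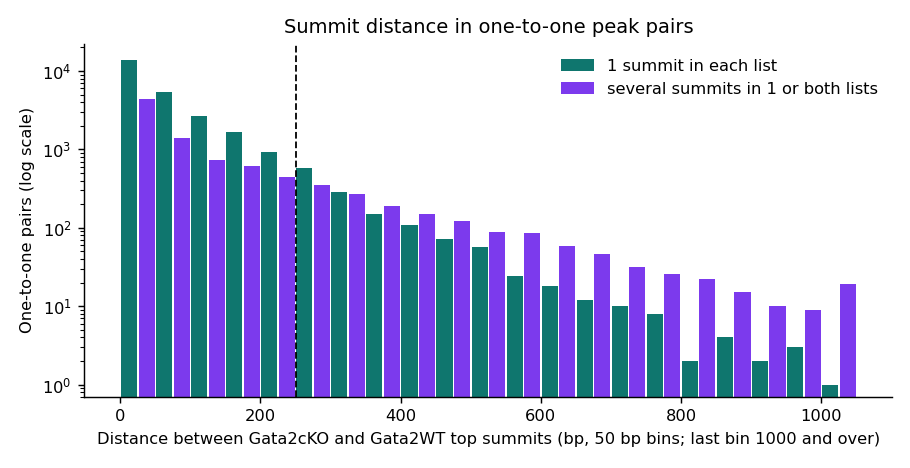
Number of 1-to-1 pairs (log scale) by the distance between the Gata2cKO and Gata2WT top summits in bp, for pairs with 1 summit in each list (green) and with several summits in 1 or both lists (violet). The counts drop without a gap across the 250 bp threshold (dashed line), and pairs with several summits outnumber the others in every bin from 350 bp on.

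The displaced pairs with 1 summit in each list were mostly weak peaks. Their median −log10 q was 3.23 in the Gata2cKO list and 3.31 in the Gata2WT list, with 12 and 13 fragments at the summit, against 9.11 and 10.0 with 21 and 24 fragments for pairs of the same class that were not displaced. Taking the smaller −log10 q of the 2 lists as the strength of a pair, 17.5% of these pairs were displaced below a strength of 2, 9.56% from 2 to 5, 1.94% from 5 to 10 and 0.356% from 10 to 20. Above 50 it was 1 of 2923 pairs. With several summits the shares were higher at each strength, at 37.3% below 2, 16.7% from 10 to 20 and 5.71% above 50. By width, the share with several summits lay between 13.6% and 18.4% in every class from 400 bp upward. With 1 summit it was 4.86% under 400 bp, 7.14% at 400 to 600 bp and 0.770% at 1000 to 1500 bp. Over 1500 bp it was 10.5% of only 19 pairs (2.94 to 31.4).

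**Figure D2:**
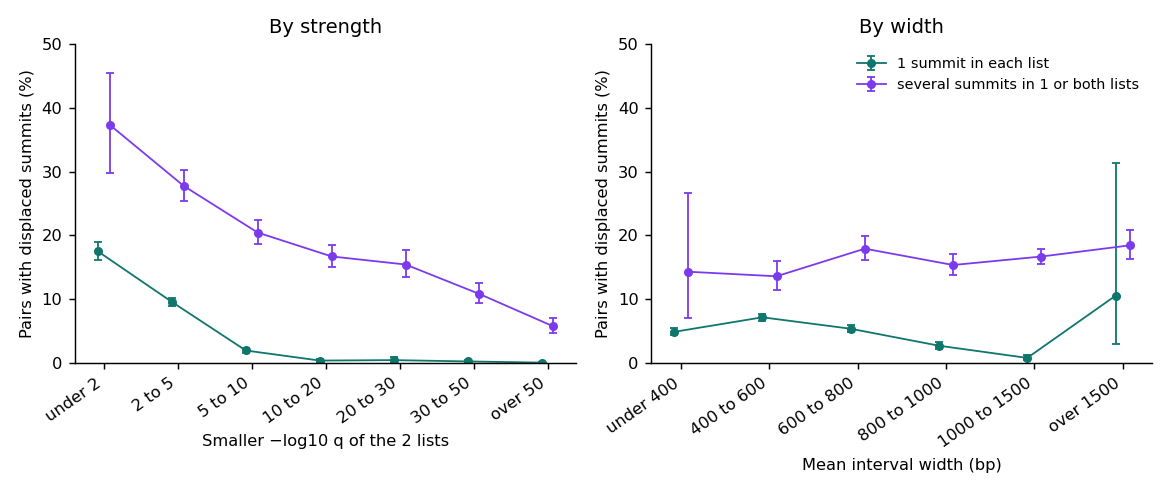
Share of 1-to-1 pairs whose top summits were more than 250 bp apart, by the smaller −log10 q of the 2 lists (left) and by the mean width of the 2 intervals in bp (right); bars are 95% Wilson intervals for counting error. Pairs with 1 summit in each list (green) drop to 0.356% at a strength of 10 to 20, whereas pairs with several summits (violet) are still at 5.71% above 50.

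In many single-summit pairs the intervals themselves were shifted. Each summit lay inside the interval of the other list in 361 of the 1321 pairs (27.3%, 25.0 to 29.8), and neither did in 345 (26.1%). In 367 pairs the Gata2cKO summit lay inside the Gata2WT interval but not the reverse, and in 248 pairs it was the other way round. The widest separation was inside Lingo1, a neuronal receptor subunit gene, on chromosome 9, where a Gata2cKO peak of 280 bp (56619617 to 56619896) overlapped the edge of a Gata2WT peak of 1531 bp (56619846 to 56621376). The summits were 1116 bp apart, with 11 fragments in Gata2cKO and 15 in Gata2WT and a −log10 q of 1.68 and 3.11. The next 5 were of the same weak kind. Those of Ermard (993 bp) and Pnliprp2 (918 bp) lay inside the gene, and those given to Gpc5 (955 bp), Jarid2 (950 bp) and Hmgn2 (933 bp) as the nearest gene lay outside it, with the Gata2cKO summit 43.1, 57.3 and 24.0 kb from the gene end. All had a −log10 q under 6.3 and 11 to 15 fragments.

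A few single-summit pairs were strong, and the 6 strongest sat at gene ends. Wdr75, a gene of ribosome production on chromosome 1, had nearly the same interval in both lists (45794976 to 45795900 in Gata2cKO, 45794976 to 45795905 in Gata2WT). Its Gata2cKO summit lay at 124 from the start with 91 fragments and its Gata2WT summit at 397 with 134 fragments. H4c4, a histone H4 gene on chromosome 13, had its Gata2cKO summit at 296 with 100 fragments and its Gata2WT summit at 12 with 116 fragments. Histone H4 genes are similar copies, and whether reads were split between them was not tested. Bmp2, the gene of a secreted BMP ligand on chromosome 2, had a −log10 q of 35.9 in Gata2cKO and 43.6 in Gata2WT, with summits 0.171 kb and 0.460 kb from the gene end. Pknox2, a homeobox gene, Il1rap, the accessory chain of the interleukin-1 receptor, and Chsy3, a chondroitin sulfate enzyme, were the other 3 of the 6 strongest, with summits 344, 257 and 333 bp apart.

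Where a displaced pair had several summits in both lists, the top summit of each list often had a counterpart among the lower summits of the other. In 507 of the 843 pairs (60.1%, 56.8 to 63.4), the Gata2cKO top summit lay within 100 bp of some Gata2WT summit and the Gata2WT top summit within 100 bp of some Gata2cKO summit. This share rests on the distances chosen: it was 38.3% with matching within 50 bp, 85.2% within 250 bp, and 49.4% when pairs counted as displaced above 150 bp. No such share is given for other positions in these peaks, so there is no level to judge it by. Since the rule takes pairs with top summits far apart, a different order of −log10 p in matched pairs follows from the choice. Heights need not follow that order: in 1 pair the Gata2cKO top summit held 42 fragments and the other site 47. In 128 pairs only the Gata2cKO top summit had such a counterpart, in 140 only the Gata2WT top summit, and in 68 neither (8.07%). Counterparts within 250 bp were missing on both sides in 12 pairs (1.42%). Where 1 list alone carried several summits, the lone summit of the other list matched a summit of that list, other than the top one, in 182 of 268 pairs with several summits in the Gata2cKO list and in 267 of 388 with several in the Gata2WT list.

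The matched summits were close in height within each list. Over the 507 matched pairs, the top summit of the Gata2cKO list held a median of 44 fragments and the counterpart of the Gata2WT top summit 37, with a median difference of 5 fragments (quartiles 2 and 10). In the Gata2WT list these were 54 and 45 fragments, with a median difference of 6 (quartiles 3 and 13.5). An exact binomial interval for the share of the top summit in the sum of both contained 50% in 478 pairs in the Gata2cKO list (94.3%), in 457 in the Gata2WT list (90.1%) and in both lists at once in 428 (84.4%, 81.0 to 87.3). The remaining 79 pairs had their summits separated in 1 list, and 0 of 507 had them separated in both, which, at 3 counts of the total, allows a share of up to 0.592%. In the 3252 pairs with several summits in both lists that were not displaced, heights were further apart. Where a list had a further summit over 250 bp from the top one, the median ratio of their heights in displaced pairs was 1.15 in Gata2cKO (799 pairs) and 1.15 in Gata2WT (820 pairs), against 1.54 (3066 pairs) and 1.52 (3092 pairs) in pairs that were not displaced. Their exact interval contained 50% in 93.7% of Gata2cKO and 90.5% of Gata2WT peaks of displaced pairs, against 51.5% and 47.5% in the others. The choice of displaced pairs favours near ties, so these values describe the members and test nothing. A long fragment can add to both summits of a peak, and the unit that the peak caller piled up is not given.

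In the 6 strongest members with several summits, heights were separated in at most 1 list. At 9430038I01Rik on chromosome 7, the Gata2cKO interval (137410396 to 137411348) held summits of 154 and 159 fragments, and the Gata2WT interval (137410277 to 137411319) held 214 and 170 at the matching places. The Gata2WT heights were separated by the exact interval and the Gata2cKO heights were not. B3galnt2, the gene of a sugar transferase, was the other way round: the 2 sites held 177 and 141 fragments in Gata2cKO and 178 and 178 in Gata2WT, and only the Gata2cKO heights were separated. Slc27a1, a fatty acid transporter gene, had 159 and 124 fragments in Gata2cKO and 159 and 169 in Gata2WT at sites 496 bp apart, and here too only the Gata2cKO heights were separated. At Birc6, printed above, the upstream site held 145 fragments in Gata2cKO and 138 in Gata2WT, and the downstream site 135 and 157, separated in neither list. At Hdac4 the Gata2cKO list had 1 summit with 147 fragments, 8 bp from a lower Gata2WT summit of 178 fragments, while the Gata2WT top summit held 200 fragments; Mier3 had the same form, with 162 fragments in Gata2cKO against 181 and 194 in Gata2WT. Gphn carried summits at both sites in both lists, with 136 and 125 fragments in Gata2cKO and 134 and 155 in Gata2WT. Susd6 had 2 summits of 128 and 102 fragments in Gata2cKO and a single one of 123 fragments in Gata2WT, 64 bp from the lower Gata2cKO summit.

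The largest distances were found in wide peaks, of 1944 to 2565 bp. Col27a1, a collagen gene, had top summits 1706 bp apart, at 582 from the start with 44 fragments in Gata2cKO and at -1124 with 51 fragments in Gata2WT. The 2 sites were matched in both lists, with 37 fragments at the upstream site in Gata2cKO and 40 at the downstream site in Gata2WT. Zic5, a zinc finger factor of neural development, had summits 1495 bp apart, with 36 and 34 fragments at the 2 sites in Gata2cKO and 22 and 48 in Gata2WT, where the heights were separated. Sox11, a neural transcription factor gene, had its Gata2cKO top summit at -183 and its Gata2WT top summit at 1179, with 39 and 33 fragments at the 2 sites in Gata2cKO and 52 and 58 in Gata2WT. Stxbp5 (1470 bp), Cpeb1 (1396 bp) and Ssbp3 (1363 bp) completed the 6 widest.

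Genes of meiotic initiation and prophase had 1 displaced pair. Of 33 such genes with a 1-to-1 pair within 1 kb of a gene end, 0 had a displaced one, which, again at 3 counts, allows a share of up to 9.09%, where 7.16% of all 12750 coding genes with such a pair did. Counting distal pairs too, 1 of 48 pairs given to meiotic genes was displaced (2.08%, 0.369 to 10.9), against 8.10% of all pairs within 100 kb of a gene; the interval contains that level. The median summit distance over the 48 pairs was 30 bp, against 46 bp over all 1-to-1 pairs. These sets are unlike, as 35 of the 48 lay at a gene end, against 12165 of all 34660. Medians of the other gene lists ran from 33.5 bp (chromatin genes) to 64 bp (GATA factors and partners). The 1 displaced pair was at Cpeb1, which encodes an mRNA-binding protein needed for meiotic prophase in mouse germ cells, at an annotated start that lies inside the gene. Its peak on chromosome 7 (81452968 to 81455532 in Gata2cKO, 81452985 to 81455517 in Gata2WT) had 4 summits in Gata2cKO and 5 in Gata2WT. The site at the start held 48 fragments in Gata2cKO and 44 in Gata2WT, and the top summit at 1475 in Gata2WT held 59 fragments, with a Gata2cKO summit of 47 fragments at 1337, 138 bp away.

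In the germ cell list, 2 of 21 genes with a gene-end pair had a displaced one, Figla and Rhox6, against 7.16% of all coding genes with such a pair, and 5 of 76 pairs were displaced (6.58%, 2.84 to 14.49). Figla, a transcription factor that mouse oocytes need to form follicles, had 2 summits in each list on chromosome 6 (86016745 to 86017598 in Gata2cKO, 86016730 to 86017642 in Gata2WT). The upstream site, at -328 and -291, held 21 fragments in Gata2cKO and 30 in Gata2WT; the downstream site, at 144 and 160, held 25 and 27. The top summit was thus the downstream one in Gata2cKO and the upstream one in Gata2WT, with differences of 4 and 3 fragments that neither list separated. Nanos3, an RNA-binding protein that germ cell precursors need to survive, had a distal pair about 10 kb from its end with 37 and 27 fragments at the 2 sites in Gata2cKO and 45 and 48 in Gata2WT. Rhox6, an X-linked homeobox gene, and Itga6, an integrin gene, had weak single-summit pairs with 14 and 9 fragments in Gata2cKO and 12 and 8 in Gata2WT.

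Pluripotency genes had displaced summits at 9 of 118 pairs (7.63%, 4.06 to 13.9), against 8.10% of all pairs within 100 kb of a gene. Of 22 genes with a gene-end pair, 1 had a displaced one, Dppa3, against 7.16% of all coding genes with such a pair. Dppa3, a maternal factor also expressed in early germ cells, had 21 fragments at each of 2 summits in Gata2cKO and 25 at its single summit in Gata2WT. Distal pairs at Sall4, Dnmt3b and Tcf7l1, 3 regulators of the pluripotent state, were displaced by 317, 490 and 468 bp, with 18, 12 and 15 fragments in Gata2cKO and 21, 13 and 13 in Gata2WT. All were weak peaks with a −log10 q under 7.1 in both lists. Pairs given to Klf4, Lefty1, Lin28b and Otx2 were also among the 9.

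Receptors, ligands and targets of retinoic acid, BMP and WNT signalling had displaced summits at 16 of 176 pairs (9.09%, 5.67 to 14.3) and at gene ends of 5 of 30 genes, against the same 7.16% of all coding genes: Bmp2, Bmpr2, Crabp2, Id4 and Lgr5. Bmpr2, the type II BMP receptor gene on chromosome 1 (59762506 to 59764058 in Gata2cKO, 59762361 to 59764164 in Gata2WT), had a site at -521 from its start in Gata2cKO and -519 in Gata2WT, and another at -1164 and -1157. The nearer site held 80 fragments in Gata2cKO and 80 in Gata2WT, and the farther site held 77 and 113, so that the top summit was the nearer one in Gata2cKO and the farther one in Gata2WT, separated in the Gata2WT list. Id4, a BMP target that blocks bHLH factors, had 3 summits in each list, with 44, 40 and 41 fragments in Gata2cKO and 53, 60 and 48 in Gata2WT, along the direction of transcription. Lgr5, a receptor that strengthens WNT signals, had top summits of 21 fragments in Gata2cKO and 39 in Gata2WT, 496 bp apart.

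**Figure D3:**
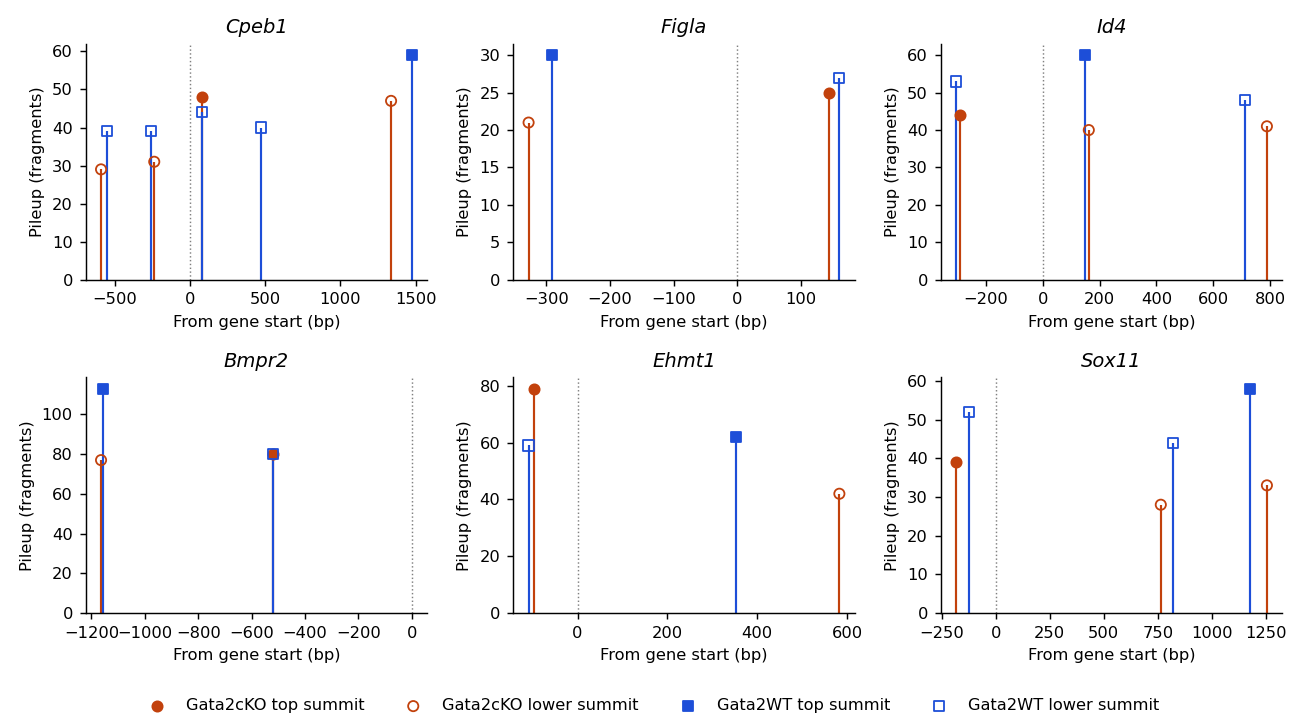
All summits of 6 displaced pairs, by position in bp from the annotated gene start and by pileup in fragments, for the Gata2cKO list (orange circles) and the Gata2WT list (blue squares); filled symbols are top summits. At Figla the top summit is at 144 with 25 fragments in Gata2cKO and at -291 with 30 fragments in Gata2WT, and each has a counterpart in the other list, of 27 fragments in Gata2WT and 21 in Gata2cKO; at Bmpr2 the symbols at -521 and -519 coincide.

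The GATA list of factors and partners had 5 displaced pairs of 57 (8.77%, 3.81 to 18.9), near the level of all pairs. Gata2 itself was not among them. Its 3 1-to-1 pairs had summits 32, 55 and 225 bp apart, with 76, 49 and 34 fragments in Gata2cKO and 80, 68 and 21 in Gata2WT. Tal1, a blood factor that binds DNA together with GATA proteins, had a single-summit pair 7.87 kb from the gene end with 17 fragments in Gata2cKO and 29 in Gata2WT, 293 bp apart. Gata4, a gonadal GATA factor, had a pair inside the gene with 17 and 29 fragments, 311 bp apart, and Zfpm2, the gene of the GATA cofactor FOG2, a distal one with 15 and 15 fragments, 445 bp apart. Gata6, the other gonadal factor, had the list's only displaced pair at a gene end, with 24 fragments in Gata2cKO and 39 in Gata2WT, 433 bp apart.

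Among chromatin genes 5 of 68 pairs were displaced (7.35%, 3.18 to 16.1), with Ehmt1 the 1 gene of 24 with a displaced gene-end pair, beside 7.16% of all coding genes. The Ehmt1 start site held 79 fragments in Gata2cKO and 59 in Gata2WT. The downstream top summit of Gata2WT held 62, and the nearest Gata2cKO summit, 230 bp from it, held 42. The heights were separated in the Gata2cKO list alone. Chd4, the gene of a remodelling ATPase, had sites of 23 and 21 fragments in Gata2cKO and 23 and 25 in Gata2WT, and E2f6, of a repressor that acts with Polycomb proteins, had 2 weak distal pairs. Cell cycle genes had 7 of 65 pairs displaced (10.8%, 5.32 to 20.6) and 2 of 18 genes with a displaced gene-end pair, beside 7.16% of all coding genes. At Mki67, the Ki-67 proliferation marker gene, the top summit held 47 fragments at -83 in Gata2cKO and 51 at 249 in Gata2WT. Rb1, the retinoblastoma gene, had its sites 768 bp apart, with 43 and 29 fragments in Gata2cKO and 41 and 48 in Gata2WT. Mycn, a MYC family gene, had 2 displaced distal pairs about 31 and 46 kb away, and in the nearer one the heights were separated in the Gata2WT list. Housekeeping genes had 2 of 33 pairs displaced (6.06%, 1.68 to 19.6), a gene-end one shared by Gapdh and Iffo1 and a distal one at Ywhaz. The intervals of the pair shares of all 8 gene lists contained the 8.10% of all pairs.

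At annotated gene starts, the position of the summits went with their number. Of 427 displaced pairs with several summits in both lists and their midpoint within 1 kb of a coding gene start, the start lay between the top summits in 269 (63.0%, 58.3 to 67.4). Both summits were downstream in 109 and upstream in 49. With 1 summit in each list, the start lay between in 30 of 98 pairs (30.6%, 22.4 to 40.3) and both summits were downstream in 48 (49.0%). Over all displaced pairs, those with several summits in both lists also had top summits farther apart (median 431 against 313 bp). Their peaks were wider too (median 1215 against 475 bp in Gata2cKO). The part of distance and width in these shares was not tested. Over all 686 displaced pairs at starts, the start lay between in 55.7%. With several summits in both lists, the median top summit of displaced pairs lay at 24 bp in Gata2cKO and 131 bp in Gata2WT (quartiles -218 and 244.5, and -192 and 378). In the 1968 pairs of that class that were not displaced it lay at 3 bp and 4 bp (quartiles -181 and 145, and -183 and 156), so single top summits also lay on both sides of the start there. Starts on chromosome 18 were not used here.

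The Gata2cKO summit was more often the upstream one, by a small margin that pairs below the threshold had as well. It lay downstream of the Gata2WT summit in 312 of 686 displaced pairs at gene starts (45.5%, 41.8 to 49.2). By distance the share was 48.9% (43.8 to 54.0) at 251 to 400 bp and 41.6% (36.4 to 47.1) over 400 bp, and in pairs that were not displaced it was 44.7% at 101 to 250 bp and 47.2% (46.2 to 48.2) at 1 to 250 bp. A promoter window held the Gata2cKO top summit alone in 202 displaced pairs and the Gata2WT top summit alone in 144, a Gata2cKO share of 58.4% (53.1 to 63.5). In pairs that were not displaced this share was 60.3% (57.6 to 63.0). Over all displaced pairs and without regard to strand, the Gata2cKO summit lay at the higher coordinate in 1404 of 2820 (49.8%, 47.9 to 51.6), and it was farther from the nearest gene end in 398 of 832 (47.8%, 44.5 to 51.2). The lists differ in depth, and the part of depth in the upstream lean was not tested.

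**Figure D4:**
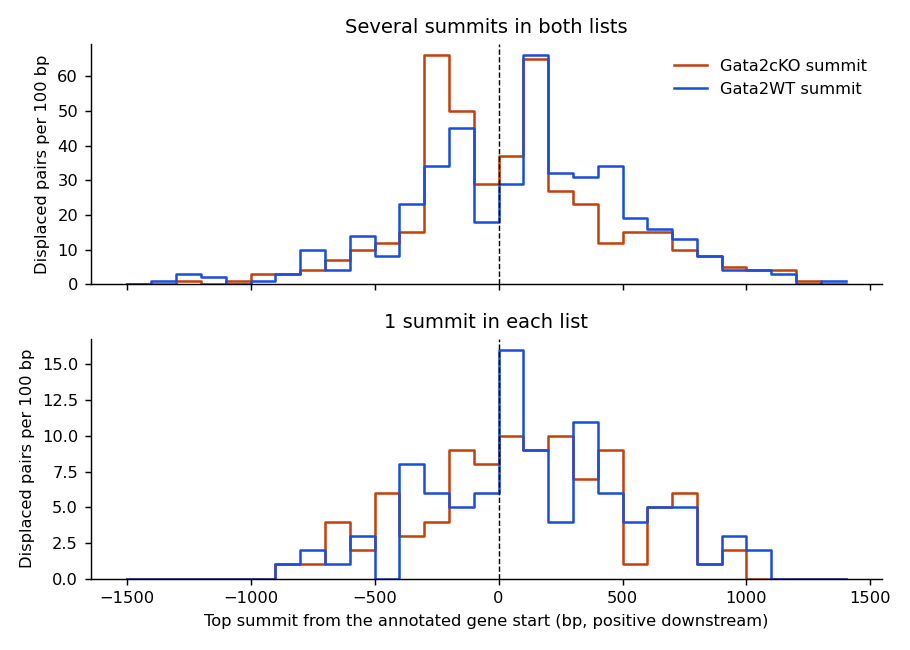
Number of displaced pairs per 100 bp by the position of the Gata2cKO (orange) and Gata2WT (blue) top summit from the annotated coding gene start, downstream positive, for pairs with several summits in both lists (upper) and 1 summit in each list (lower). In the upper panel both genotypes form a cluster on each side of the start (dashed line), with medians of 24 bp for Gata2cKO and 131 bp for Gata2WT.

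Some displaced pairs lay near the starts of 2 genes. In 29 of 656 displaced pairs with both top summits within 1 kb of a start (4.42%, 3.10 to 6.28), the Gata2cKO and Gata2WT summits were nearest to starts of different genes, and in 28 of the 29 these genes were read from opposite strands. The same share among pairs that were not displaced was not computed, and neither was whether the summits lay between the starts. The strongest, named after their values were seen, was at Adk (adenosine kinase) and Ap3m1 (a subunit of an adaptor complex for vesicles) on chromosome 14. Its Gata2cKO top summit of 133 fragments lay 173 bp from the start of Adk. Its Gata2WT top summit of 193 fragments lay 126 bp from that of Ap3m1. At the Myo9a and Senp8 promoters printed above, the Gata2cKO summit held 125 fragments and the Gata2WT summit 151. Sesn1 with Cep57l1, and Tor1aip2 with Tor1aip1, were also among the 29, the first gene of each nearest in Gata2cKO.

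Location followed the number of summits. The midpoint of the top summits lay within 1 kb of a coding gene end in 29.5% of displaced pairs (27.8 to 31.2), against 35.6% of the others (35.1 to 36.1). When both lists were limited to strong peaks (−log10 q of 10 or more) before pairing, the order was the other way round, with 68.1% of 747 displaced pairs (64.7 to 71.4) and 60.9% of 15403 others (60.2 to 61.7), a comparison added after seeing the data. With displaced pairs taken above 500 bp, 41.2% of them lay at a gene end. With several summits in both lists it was 59.7% of displaced pairs and 66.7% of the others, and with 1 summit in each list 11.7% and 30.5%. In single-summit pairs of like width the gap was large in wide peaks and small in narrow ones: at 800 to 1000 bp, 22.8% of 92 displaced pairs (15.4 to 32.4) and 65.9% of 3333 others lay at a gene end, at 400 to 600 bp 9.79% and 14.49%, and under 400 bp 7.25% (4.69 to 11.05) and 9.23%, where the interval contains the value of the others. With several summits at 1000 to 1500 bp the shares were 63.1% (59.2 to 66.8) and 71.3% (69.7 to 72.8). Strength differs between these groups too, as given above. Away from gene ends, 41.6% of displaced pairs lay inside genes and 28.9% between them, against 34.9% and 29.5% of the others.

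The promoters involved were rich in CG dinucleotides. Windows that held only the Gata2cKO top summit of a displaced pair (211 windows) had a median GC content of 65.7% and 25 CG dinucleotides, and those that held only the Gata2WT top summit (155 windows) 65.3% and 24. Windows that held both summits of a pair that was not displaced (4074 windows) had 63.3% and 24, and all 21019 coding windows 56.7% and 13. GATA motifs, searched on both strands as the word AGATAA, the word AGATAG, the word TGATAA or the word TGATAG, were in 12.8% (8.95 to 17.98) of the Gata2cKO windows, 13.5% (9.04 to 19.8) of the Gata2WT windows, 13.4% of the windows not displaced and 25.8% of all. None of the 7 printed windows holds one. The GC box GGGCGG, searched on both strands, was in 75.8%, 78.7%, 71.9% and 46.6% of them in the same order, and in all 7 printed windows, with 5 matches in that of Hdac4. The CCAAT box, searched as CCAAT on both strands, was in 30.8% (25.0 to 37.3) of the Gata2cKO and 37.4% (30.2 to 45.3) of the Gata2WT windows, against 46.3% (44.8 to 47.9) of the windows not displaced and 38.5% of all. The E box CACGTG, a palindrome, was in 11.4%, 7.74%, 11.05% and 7.91% in the same order. These are matches of letters, not binding sites.

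The threshold cut through a continuous range of distances. The 3 strongest at 251 bp were at Sidt2, at Cog8 and Pdf, and at Dgkg, with a −log10 q of 49.9, 42.2 and 7.89 in Gata2cKO and 44.2, 68.2 and 8.401 in Gata2WT. The 3 strongest at 250 bp, which are not members, were at Nsun2 and Srd5a1, at Blm, and at Haus2 and Lrrc57, with 78.8, 54.0 and 51.6 in Gata2cKO and 107.9, 101.9 and 76.0 in Gata2WT.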

How the data were processed

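ATAC-seq libraries of 4 samples, 2 Gata2cKO and 2 Gata2WT by the genotype label, were processed by the authors on GRCm38 (mm10). The submitters' processing notes name MACS2 2.2.6, bedtools 2.29.2, Bowtie2 2.3.5.1, Trimmomatic 0.39, Picard 2.23.0 and SAMtools. Their settings, any Tn5 shift and the way replicates were combined were not given in the sources used. The deposited lists give per summit a fold enrichment (a ratio to the local background), a −log10 p, a −log10 q and a score, which is 10 times the −log10 p cut to a whole number. None was scaled between lists. Each is the authors' value for its peak and was used within a list.

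Pairs, distances and shares were computed with Python 3.11.15, numpy 2.4.6, pandas 2.3.3 and scipy 1.17.1. Pileups were solved from fold and −log10 p and came out whole within 0.001 in −log10 p for 99.9943% of Gata2cKO and 99.9949% of Gata2WT summits. On 4000 simulated pairs, the distance, class and pileup of 100% were recovered. Gene ends, both limits of each gene, came from RefSeq (21627 coding genes), and starts with strand from its promoter table (17273 genes). Intervals are 95% Wilson or exact binomial, with 3 counts as the limit for a count of 0, and cover counting error only. Genes within 1 kb, or else the nearest within 100 kb, were given to a pair; of 223 listed genes 222 were found. Members and lists were chosen with earlier results of these data known. Named pairs are those of largest distance and of highest smaller −log10 q in each class, up to 4 per gene list, up to 4 with 1 top summit in a promoter window, those at the threshold and those of Gata2; others are marked as chosen later. Alternatives covered the threshold, top summit, overlap, strength, list length, windows and X.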

Additional observations from a re-analysis of the deposited data

How the results depend on the processing

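Of 76 recomputed values, 50 stayed within the interval of the reported value (counts: within 1.5 times). A threshold of 150 or 500 bp gave 6411 or 551 displaced pairs, shares of 15.1% or 0.551% with 1 summit and 28.1% or 4.52% with several, median distances of 234 or 613 bp, and gene-end shares of 25.3% or 41.2%. Matched summits were 49.4% at 150 bp, and the Gata2cKO summit was farther from the gene end in 43.2% at 500 bp. With a −log10 q of at least 10 in both lists, 747 pairs were displaced, 0.245% of single-summit and 12.1% of several-summit pairs, with a median of 389 bp, 68.3% matched and 68.1% at gene ends. An overlap of at least 50% of both intervals gave 2.97% of single-summit pairs and 36.8% at gene ends, and equal list lengths 4.50% and 31.5%. Matching within 50 or 250 bp gave 38.3% or 85.2%, and gene-end windows of 0.5 or 2 kb gave 21.0% or 36.4%. A threshold, a strength limit or a window selects other pairs by construction; beyond that, the cause was not tested. The direction along the chromosome, the upstream lean at gene starts and the promoter window share stayed within the reported interval throughout. The last 2 were added after seeing the data. Their recomputed intervals differed in whether they took in 50%. That of the upstream lean did so at 500 bp (37.2 to 51.3), at an overlap of 50% (42.9 to 50.5) and at the strength limit (40.8 to 50.04). That of the promoter window share did so at 500 bp (42.8 to 64.7). That of the direction along the chromosome left 50% out at 150 bp (47.3 to 49.7), unlike the reported one. No paired analysis was possible because each genotype has 1 combined list, and no library could be left out. With 1 list per genotype, summits that differ by a few fragments cannot be ranked beyond counting error.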
